A study of Homo sapiens with 12 samples.

Results

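The genes described here encode the proteins of the mitochondrial respiratory chain and ATP synthase that are written in the nuclear genome. They were chosen by name from a count table of 62069 genes: protein-coding genes whose symbols start with NDUFA, NDUFB, NDUFC, NDUFS, NDUFV, UQCR or ATP5, the SDH subunits A to D, CYC1, and COX symbols numbered 4 to 8. The rule found 99 genes, of which 46 belong to complex I, 4 to complex II, 10 to complex III, 19 to complex IV and 20 to complex V. The complex I names take in 8 NDUFAF genes, which encode assembly factors and not subunits, and 2 of the 99 are readthrough genes. NDUFA4 was counted with complex IV, where its protein sits despite the name.

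The RNA came from a strain of lung fibroblasts, IMR90, that makes RAS joined to a hormone-binding domain (ER:RAS). Adding 4-hydroxytamoxifen (4OHT) switches the fusion on and brings about oncogene-induced senescence (OIS). The 4 groups of 3 libraries were non-induced cells, cells induced with 100 nM 4OHT, and induced cells carrying shXPO7_3 or shXPO7_5. These are shRNAs against XPO7, a nuclear transport receptor. The groups without an XPO7 shRNA are called vector by the paper, which in other experiments describes its vector as a nontargeting control. All labels name day 5. The sample descriptions also give 7 days of culture, a medium change on day 4 and passage 13, so the time in 4OHT is taken from the label. All groups carry ER:RAS, so the non-induced cells differ from a normal fibroblast in holding the fusion gene. No source states that the libraries of a group came from different cultures, so each p reflects library-to-library spread alone and may be technical. In such bulk libraries, a change in RNA per cell and a change in the mix of cells cannot be told apart.

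Library totals ran from 28534141 to 60397769 counts. XPO7 mRNA stood at 143, 132 and 129 CPM (counts scaled to a common library size) in non-induced and 127, 144 and 139 in induced cells. It was 26.4, 28.7 and 27.9 CPM with shXPO7_3 and 50.8, 54.0 and 51.8 with shXPO7_5, so every knockdown library lay below every library without XPO7 shRNA. Of 8 fibroblast markers all were measured, with summed levels of 24016 to 27880 CPM in non-induced and 16696 to 18154 CPM in induced libraries. The 8 markers of other cell types summed to 1.34 to 2.10 CPM in non-induced and 0.711 to 0.922 in induced libraries, with PECAM1, CDH5 and SFTPC at 0 counts in all 12.

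The chain passes electrons from food to oxygen and stores the energy as a proton gradient. Complex I (NADH dehydrogenase) and complex II (succinate dehydrogenase) feed electrons to coenzyme Q, complex III hands them to cytochrome c, complex IV (cytochrome c oxidase) gives them to oxygen, and complex V (ATP synthase) uses the gradient to make ATP. The core of most complexes also needs subunits encoded by mitochondrial DNA. Many promoters of the nuclear genes are known to bind NRF1 and GABP, an ETS factor, and senescent fibroblasts are known for altered mitochondrial metabolism.

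The promoters of 4 members are shown because these genes carry the results that follow: NDUFAF4, UQCRH and UQCRC1 had the largest rises in OIS among members called higher whose promoter was available, and COX7C was the member that fell. Each sequence runs 5′ to 3′ on the gene's strand from 250 bases before to 50 after the start of transcription, from RefSeq on GRCh38.p14. Capitals mark matches to 2 motifs on either strand, the ETS motif CCGGAAG and the NRF1 motif, which is GCGCA followed by any base and GCGC. The regions are chr6:96897842-96898141 (minus strand), chr1:46303448-46303747 (plus), chr3:48609597-48609896 (minus) and chr5:86617691-86617990 (plus).
NDUFAF4: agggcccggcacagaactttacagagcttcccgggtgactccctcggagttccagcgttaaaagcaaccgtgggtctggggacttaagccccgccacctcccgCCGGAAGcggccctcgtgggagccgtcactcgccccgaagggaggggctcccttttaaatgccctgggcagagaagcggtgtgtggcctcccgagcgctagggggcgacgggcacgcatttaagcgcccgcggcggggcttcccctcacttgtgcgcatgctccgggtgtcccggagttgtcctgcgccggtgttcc
UQCRH: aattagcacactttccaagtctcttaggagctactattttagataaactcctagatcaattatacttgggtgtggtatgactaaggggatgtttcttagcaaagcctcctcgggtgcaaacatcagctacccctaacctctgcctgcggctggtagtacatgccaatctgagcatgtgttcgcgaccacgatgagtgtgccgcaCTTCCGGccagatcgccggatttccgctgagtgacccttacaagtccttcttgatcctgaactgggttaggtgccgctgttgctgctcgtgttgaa
UQCRC1: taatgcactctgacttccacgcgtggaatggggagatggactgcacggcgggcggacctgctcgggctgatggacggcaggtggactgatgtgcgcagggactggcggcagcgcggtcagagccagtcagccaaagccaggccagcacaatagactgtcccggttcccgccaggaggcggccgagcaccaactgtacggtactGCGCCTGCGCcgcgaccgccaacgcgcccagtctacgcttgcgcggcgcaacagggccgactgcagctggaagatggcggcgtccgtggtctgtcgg
COX7C: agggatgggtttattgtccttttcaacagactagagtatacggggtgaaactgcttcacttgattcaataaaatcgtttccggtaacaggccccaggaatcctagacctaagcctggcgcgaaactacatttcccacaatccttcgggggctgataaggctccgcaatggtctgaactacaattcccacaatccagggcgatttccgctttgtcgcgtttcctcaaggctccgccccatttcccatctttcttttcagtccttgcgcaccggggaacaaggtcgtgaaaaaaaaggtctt

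NDUFAF4 and UQCRH each held 1 ETS match, UQCRC1 held 1 NRF1 match and COX7C neither. Of the 97 members other than readthrough genes, 77 had a promoter in the reference, taken at the first listed start of each gene. The NRF1 motif was in 18 of these (23.4%) against 6.28% of all 27305 promoters of that length and 11.6% of the 11113 that belong to genes tested. The ETS motif was in 21 of 77 (27.3%), against 10.7% and 18.9%. Among the 21 members called higher in OIS with a promoter, 28.6% held the NRF1 motif and 28.6% the ETS motif. Among the 51 members tested and not called higher the shares were 21.6% and 29.4%, so the ETS motif was not more frequent in members that rose. A match of letters is a description and not a binding site.

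Of the 99 members, 90 had enough counts to be tested by edgeR. The 9 others were the complex I core gene NDUFV2 with 3 to 12 counts per library, the isoform genes COX4I2, COX6A2, COX6B2, COX7B2 and COX8C with 0 to 4, ATP5MGL with 0 to 3, and both readthrough genes with 0. Another 4 were tested at a mean under 2 CPM: NDUFA7, UQCR11, UQCRHL and NDUFA4L2. The other 86 had group means from 3.57 CPM (COX7A1) to 915 CPM (ATP5F1B, the catalytic β subunit of ATP synthase). NDUFV2, UQCR11 and NDUFA7, which encode ordinary subunits, were this low in all 4 groups. UQCR11 had 3 to 21 counts per library and NDUFA7 15 to 43. NDUFV2 shares 28.4% of its exonic bases with another annotated gene on its strand, which was at 0 counts. NDUFA7 shares 32.3% with a gene that was at 0 to 1 counts. How reads with several matches were treated is not given in the sources used here. Names of the rule also matched 169 pseudogenes, so counts of members with close copies are uncertain.

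The first comparison asks which respiratory chain mRNAs differ between induced and non-induced cells, both labelled day 5. Of the 90 members tested, 26 rose in induced cells, 1 fell and 63 did not pass an adjusted p of 0.05. Over all 15284 genes tested, 24.8% were called higher and 26.1% lower, so 50.9% were called in either direction, against 30.0% of members. The members' share of calls was thus below that of the table as a whole, and 26 of the 27 calls were rises. The rises were small: the 26 folds ran from 1.14 to 1.78 with a median of 1.23, and NDUFAF4 alone was above 1.41. The median log2 fold change was 0.12 over the 90 members and -0.01 over all genes tested. Relative to the non-induced mean, the members' median was 0.09, 0.14 and 0.15 in the induced replicates T, A and B.

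**Figure D1:**
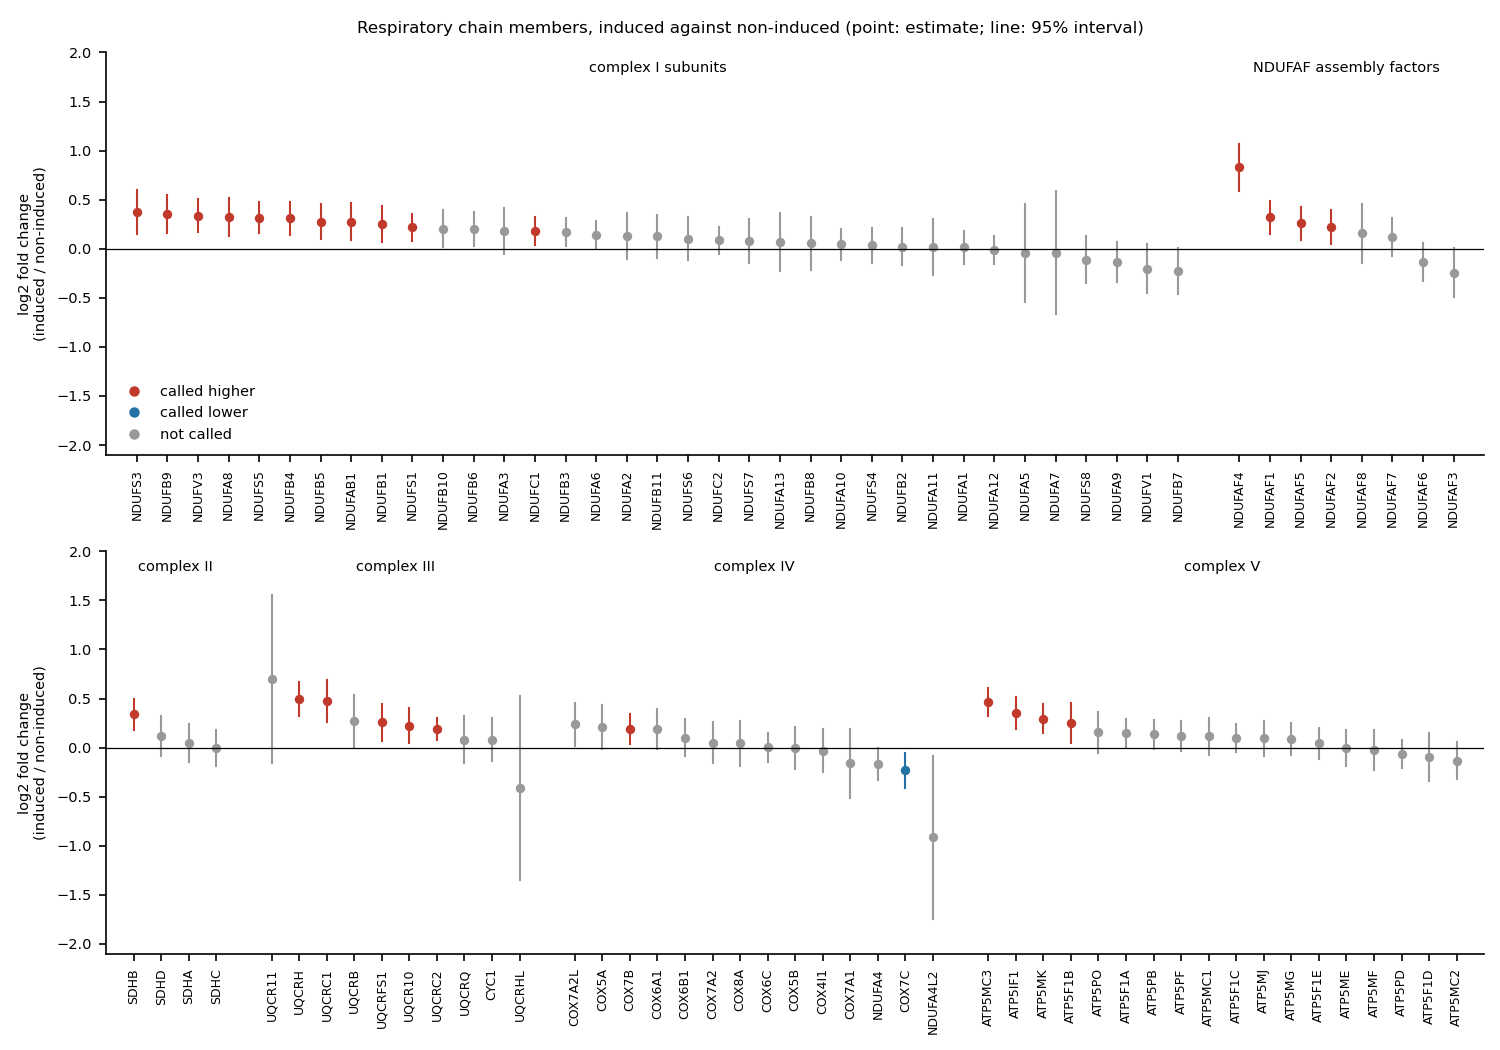
Log2 fold change of induced over non-induced cells (vertical axis) for 89 of the 90 members tested, ordered by size within complex I subunits, NDUFAF factors and complexes II to V; points are edgeR estimates and lines 95% intervals. Red marks the 26 members called higher and blue COX7C, the 1 called lower; the 62 others drawn were not called.

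These counts depended on the scaling and on single libraries. Upper-quartile factors, which put the median of all genes at -0.10, gave 12 calls, of which 7 were higher and 5 lower and 8 were among the 27. Without induced replicate B 15 members were called and without non-induced replicate A 17, all of them higher in both fits. Of the 27 members, 14 were called in all 6 fits that left out 1 library. A correction for GC content and length gave 33 calls, 30 higher and 3 lower, of which 17 were among the 27. The 16 others took in ATP5MC1, COX6A1, COX6B1, COX8A, CYC1, NDUFS7, SDHA, NDUFV1 and NDUFAF3.

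Complex I held 15 of the 26 rises, from 44 members tested. The largest was in NDUFAF4, an assembly factor that helps build the complex and is not part of it. Its level was 12.2, 13.5 and 13.1 CPM in the non-induced libraries and 21.5, 24.6 and 23.1 CPM in the induced ones. The groups did not overlap, and the log2 fold change was 0.83 (SE 0.11, adjusted p = 4.75e-05), or 1.78-fold. Of the 8 NDUFAF genes 4 rose, the others being NDUFAF1 (0.32), NDUFAF5 (0.26) and NDUFAF2 (0.22 on the log2 scale). NDUFAF2 was not called without induced replicates A or B or non-induced replicates A or C (adjusted p up to 0.114 by edgeR). NDUFAF5 was not called without induced replicate B (adjusted p = 0.0776 by edgeR). NDUFAF3 and NDUFAF6 had values of -0.24 and -0.13 and were not called. NDUFAF3 was called lower with upper-quartile factors (-0.34, adjusted p = 0.0467 by edgeR), with the GC and length correction (-0.17, adjusted p = 0.00943) and in the fit of these 2 groups only (-0.24, adjusted p = 0.0375).

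The core subunits carry the flavin and iron-sulphur clusters along which electrons move, and 2 of the 6 that could be tested rose. NDUFS3 was at 49.6, 44.2 and 42.8 CPM in non-induced and 57.7, 56.3 and 62.7 CPM in induced libraries. All 3 induced values were above the non-induced ones, with a log2 fold change of 0.37 (SE 0.10, adjusted p = 0.00919), a call lost with upper-quartile factors (0.27, adjusted p = 0.086). NDUFS1, the largest iron-sulphur subunit, was at 129, 135 and 133 CPM and 149.8, 155 and 157 CPM. It rose by 0.22 (SE 0.06, adjusted p = 0.0131) on the log2 scale, and without induced replicate B it was not called (0.19, adjusted p = 0.0641). Of 9 other settings of the fit, NDUFS1 was called in 5. Its lowest value there was 0.083, with a replicate block and the GC and length correction. Among those not called were NDUFS7 at 0.08 (95% interval -0.15 to 0.30), NDUFS8 at -0.11 (95% interval -0.35 to 0.13) and NDUFV1 at -0.20 (95% interval -0.45 to 0.04). After correction for GC content and length NDUFV1 was called lower (-0.13, adjusted p = 0.0351 by edgeR). NDUFV1 binds the flavin that takes electrons from NADH, and NDUFS7 and NDUFS8 lie near the site where coenzyme Q is reduced.

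The accessory subunits surround this core, and 9 of 30 rose, with a median over the 30 of 0.13. NDUFB9, in the membrane arm, went from 70.7, 67.7 and 61.3 CPM to 80.1, 87.1 and 87.9 CPM. The groups did not overlap, with a log2 fold change of 0.35 (SE 0.09, adjusted p = 0.00571), a call lost with upper-quartile factors (0.25, adjusted p = 0.0722). The other 8 were NDUFV3, NDUFA8, NDUFS5, NDUFB4, NDUFB5, NDUFAB1, NDUFB1 and NDUFC1, at 0.18 to 0.34. The lowest of the 30 was NDUFB7 at -0.23, not called, though it was called lower with upper-quartile factors (-0.33, adjusted p = 0.0396 by edgeR) and in the fit of these 2 groups only (-0.23, adjusted p = 0.0447). Of the 9, NDUFC1 was called in none of the fits that left out 1 library. NDUFB1 lost its call without induced replicates T or B or non-induced replicates A or C. NDUFAB1 lost it without induced replicate B or non-induced replicates A or C, and NDUFB5 without non-induced replicate A.

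Complex II has 4 subunits and no mitochondrially encoded part. SDHB, its iron-sulphur subunit, was at 77.0, 68.8 and 66.4 CPM in non-induced libraries and 88.1, 85.8 and 94.3 CPM in induced ones. The groups were apart, and the log2 fold change was 0.34 (SE 0.07, adjusted p = 0.00167). The flavoprotein SDHA was at 98.0, 87.3 and 82.1 CPM and 91.7, 90.7 and 94.2 CPM, which overlap, with a log2 fold change of 0.05 (95% interval -0.15 to 0.25). The membrane anchors SDHC and SDHD had values of -0.0016 and 0.12 and were not called. The data do not test whether SDHB and SDHA differ from each other.

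In complex III, 5 of 10 members tested rose and none was called lower. UQCRH, the small hinge protein at the cytochrome c side, was at 98.3, 87.2 and 83.8 CPM in non-induced and 123, 129 and 128 CPM in induced libraries. The induced values were all higher, with a log2 fold change of 0.50 (SE 0.08, adjusted p = 0.000239). UQCRC1, a core protein that gives the complex its matrix part, was at 162, 150.1 and 136 CPM and 203, 207 and 214 CPM. It rose by 0.48 (SE 0.10, adjusted p = 0.00141), again with no overlap. UQCRFS1, the Rieske iron-sulphur protein that carries electrons, went from 66.6, 60.9 and 60.0 CPM to 79.0, 69.5 and 75.7 CPM. Its log2 fold change was 0.26 (SE 0.09, adjusted p = 0.0259), and without non-induced replicates A or C or induced replicates T or B it was not called (adjusted p up to 0.0935). CYC1, which is cytochrome c1, was at 84.6, 82.5 and 75.01 CPM and 85.9, 82.3 and 87.6 CPM and had a value of 0.08 (95% interval -0.14 to 0.30). UQCR10 and UQCRC2 rose by 0.22 and 0.19. UQCR10 kept its call only without non-induced replicate T (adjusted p up to 0.107 in the 5 other fits), and UQCRC2 lost it without induced replicate B (adjusted p = 0.0523). UQCRHL, a copy of UQCRH, had 4 to 16 counts per library against 2956 to 7133 for UQCRH, so nearly all counts of the pair were given to UQCRH.

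Complex IV stood at a median of 0.02, with 1 of its 14 tested members higher and 1 lower. COX7C, a small subunit of the complex, was at 103, 94.5 and 87.6 CPM in non-induced libraries and 80.4, 81.2 and 80.8 CPM in induced ones. The induced values were close to each other and below all non-induced ones, with a log2 fold change of -0.23 (SE 0.08, adjusted p = 0.0333). The call rested on the full set of libraries: over the 6 fits without 1 library its values ran from -0.29 to -0.17, and it was called only in the fit without non-induced replicate C (adjusted p up to 0.134 in the others). COX7B went from 70.4, 70.1 and 65.3 CPM to 77.3, 75.7 and 81.9 CPM. This was a log2 fold change of 0.19 (SE 0.07, adjusted p = 0.0357), lost without non-induced replicates A or C or induced replicates T or B (adjusted p up to 0.154). After correction for GC content and length it was at 0.065 (adjusted p = 0.67). COX4I1, COX6A1, COX6B1, COX7A2 and COX8A, the isoforms common to most tissues, lay between -0.03 and 0.19 and were not called. Upper-quartile factors turned the sign of COX6B1, COX7A2 and COX8A.

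Several complex IV subunits exist as isoforms of which one is used in muscle, lung, testis or low oxygen. COX4I2, COX6A2, COX6B2, COX7B2 and COX8C were at or near 0 counts in all groups, and no fold was computed for them. COX7A1, known from heart and muscle, was present at 3.96, 4.08 and 3.91 CPM in non-induced and 3.77, 3.58 and 3.35 CPM in induced libraries. Its log2 fold change was -0.16 (95% interval -0.51 to 0.19). Per kilobase of transcript, COX7A1 stood at 9.78 ± 0.217 CPM (SD, n = 3) and COX7A2 at 209 ± 16.2 in non-induced cells, and at 8.76 ± 0.52 and 217 ± 5.4 in induced cells. COX7A2 thus exceeded COX7A1 in every library. NDUFA4 was at 135, 124 and 119 CPM and 110.2, 111 and 116 CPM, a log2 fold change of -0.17 (95% interval -0.33 to -3.8e-05) with an adjusted p of 0.0875 by edgeR. It was called lower with upper-quartile factors (-0.27, adjusted p = 0.038) and with a filter of 1 CPM in 6 libraries (-0.20, adjusted p = 0.047). Its relative NDUFA4L2, which responds to low oxygen, had 7 to 49 counts per library. Its log2 fold change, -0.92, was the lowest of complex IV but was not called. NDUFA4L2 was called lower with upper-quartile factors, without non-induced replicate T and without induced replicate A. COX7A2L, which helps join complexes III and IV, had 0.24 (95% interval 0.02 to 0.45) and an adjusted p of 0.0646 by edgeR. It was called without non-induced replicate T (0.34, adjusted p = 0.0118).

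ATP synthase had 4 rises among 18 members tested. Its proton-carrying ring is built from subunit c, for which 3 genes encode the same mature protein behind different targeting sequences. ATP5MC3 was at 142, 132 and 132 CPM in non-induced and 185, 184 and 192 CPM in induced libraries. The groups were well apart, with a log2 fold change of 0.46 (SE 0.07, adjusted p = 8.27e-05). ATP5MC1, at 49.2, 46.4 and 41.5 CPM and 51.2, 49.4 and 47.8 CPM, had 0.11 (95% interval -0.07 to 0.30). ATP5MC2, at 118, 118 and 108 CPM and 103, 101 and 110.0 CPM, had -0.13 (95% interval -0.32 to 0.05). Neither was called, and the interval of each lay below that of ATP5MC3, though the difference between the genes was not tested. Per kilobase, the order in non-induced cells was ATP5MC3 (161 ± 6.62 CPM), ATP5MC2 (141 ± 7.32) and ATP5MC1 (90.8 ± 7.75). In induced cells it was the same order, at 222 ± 4.83, 129 ± 5.95 and 98.3 ± 3.38 CPM.

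ATP5IF1, the inhibitor that stops the enzyme from running backwards, was at 51.4, 49.3 and 47.0 CPM and 59.6, 65.6 and 63.2 CPM. It rose by 0.35 (SE 0.07, adjusted p = 0.00161). ATP5MK, a small membrane subunit, was at 67.6, 64.6 and 61.5 CPM and 79.1, 76.9 and 81.7 CPM, with a rise of 0.30 (SE 0.07, adjusted p = 0.00254). Its call was lost with upper-quartile factors (0.20, adjusted p = 0.0571) and with the GC and length correction (0.20, adjusted p = 0.0708). In both genes every induced library was higher. Of the 5 F1 subunits, which form the catalytic head, 1 rose: ATP5F1B (0.25, adjusted p = 0.0388 by edgeR), which lost its call in 5 of the 6 fits without 1 library. None of the 4 stalk subunits was called, with values of -0.06 to 0.16.

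Summed over all members, the share of all counts was 0.697% ± 0.0296 (SD, n = 3) in non-induced and 0.735% ± 0.0234 in induced cells, and these ranges overlapped (0.668 to 0.727% and 0.718 to 0.761%). Relative to TMM effective library sizes, the scale of the CPM values, they did not (0.634 to 0.707% and 0.729 to 0.766%). Complex III was at 0.0822% ± 0.00268 and 0.0952% ± 0.00154, with no overlap. The shares of complexes I, II, IV and V in all counts overlapped between the groups. On effective sizes, complex I (0.176 to 0.193% and 0.199 to 0.210%) and complex V (0.254 to 0.285% and 0.294 to 0.311%) did not overlap, while complexes II and IV did. With shXPO7_3 the members held 0.741% ± 0.0310 and with shXPO7_5 0.760% ± 0.0334.

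**Figure D2:**
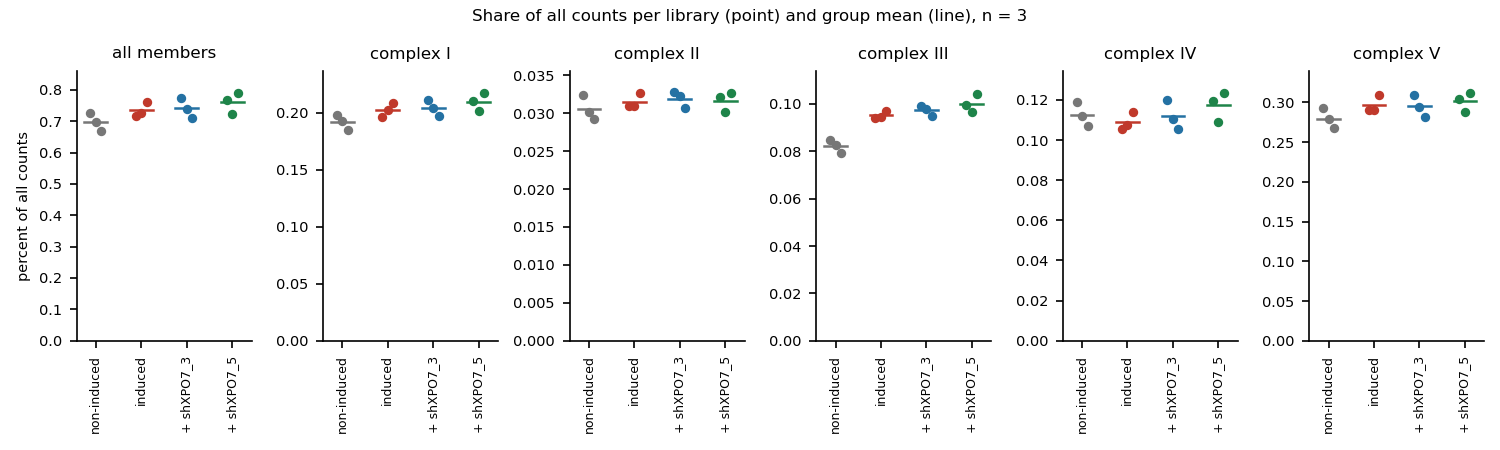
Share of all counts held by the members and by each complex (vertical axes, percent, from 0), with 1 point per library and a line at the mean of each group of 3. Complex III is the panel in which the induced libraries, with and without XPO7 shRNA, all lie above the non-induced ones, while complex IV overlaps.

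The genes around the chain were read from lists of known function. Over all genes tested, 24.8% were called higher in OIS and 26.1% lower, or 50.9% either way. Called either way were 61.5% of the mitochondrially encoded subunits, 55.6% of the regulators and 48.5% of the assembly factors of complexes II to V. The shares were 40% for further complex I factors, 78.6% for electron carriers and coenzyme Q synthesis, and 28.6% for the tricarboxylic acid cycle. They were 50% for other donors to coenzyme Q and 42.9% for carriers and porins. Of the 13 subunits encoded by mitochondrial DNA, all were tested and 8 rose, with a median of 0.21. MT-ND2 went from 1077 ± 86.0 to 1502 ± 45.6 CPM (SD, n = 3), and its log2 value rose by 0.48 (SE 0.08, adjusted p = 0.000225). MT-ATP6 and MT-CYB rose by 0.37 and 0.31. Together the 13 held 3.03% ± 0.142 of counts in non-induced and 3.34% ± 0.0564 in induced libraries, ranges that did not overlap.

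Of 18 regulators of these genes and of mitochondrial DNA, 9 rose and 1 fell. PPARGC1B, a coactivator of respiratory genes, went from 2.27 ± 0.0974 to 8.22 ± 0.819 CPM, a log2 fold change of 1.85 (SE 0.11, adjusted p = 3.4e-08). Its partner receptor ESRRA rose by 0.76 (SE 0.10, adjusted p = 6.27e-05), from 16.0 ± 0.409 to 27.1 ± 1.13 CPM. POLRMT, the mitochondrial RNA polymerase, rose by 0.57. NRF1 itself fell by 0.43 on the log2 scale, from 14.3 ± 1.82 to 10.6 ± 0.606 CPM (adjusted p = 0.0065 by edgeR).

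Assembly factors were mixed. Of 33 for complexes II to V, 10 rose, led by SCO2 (0.65), a copper carrier for complex IV, SDHAF2 (0.60), which attaches flavin to SDHA, and TMEM70 (0.59), a factor for ATP synthase. Another 6 fell, led by SDHAF4 (-0.50), UQCC2 (-0.41) and SURF1 (-0.35). Of 10 further complex I factors 2 rose, TMEM186 (0.23) and COA1 (0.20), and 2 fell, FOXRED1 (-0.32) and ACAD9 (-0.27).

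Cytochrome c and coenzyme Q carry electrons between complexes. CYCS, which encodes cytochrome c, rose by 0.49 (SE 0.13, adjusted p = 0.00764), from 128 ± 11.1 to 179.8 ± 9.99 CPM. Among the 14 genes of this list 7 rose and 4 fell. COQ10B, a coenzyme Q binding protein, rose by 0.93 and COQ9 by 0.43. COQ8A (-0.83), COQ2 (-0.64) and COQ7 (-0.62), which take part in making coenzyme Q, fell. Of 6 tested genes for other enzymes that feed coenzyme Q, SQOR rose (0.32), while GPD2 (-0.69) and DHODH (-0.63) fell.

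Upstream and beside the chain, 1 of 14 tricarboxylic acid cycle genes rose, IDH3A (0.55), and 3 fell, IDH2 (-0.75), SUCLG2 (-0.50) and FH (-0.25). Among 7 carriers and porins, VDAC1 (0.25) and VDAC2 (0.30) rose and SLC25A4 (-0.59), the ADP/ATP carrier of muscle, fell. Of 75 tested mitochondrial ribosomal protein genes 31 rose and 7 fell, with a median of 0.15. The share called, 50.7%, was close to the 50.9% of all genes tested. The largest changes were MRPL36 (1.01), MRPL50 (0.68) and MRPS6 (0.66) upwards and MRPL23 (-0.69), MRPL11 (-0.51) and MRPL48 (-0.40) downwards. Of the 8 fibroblast markers 5 fell, and of the 8 markers of other cell types EPCAM and MYH11 fell from group means under 1 CPM. Whether these marker changes have a part in the results above was not tested.

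The second question is whether knockdown of XPO7 in induced cells alters these mRNAs. With shXPO7_3 none of the 90 members was called by edgeR, at a background of 0.124% of genes called. DESeq2 called none as well, and 1 member had an unadjusted p under 0.05 against 6.41% of all genes. The member was NDUFAF6, an assembly factor, at 8.42, 7.41 and 8.01 CPM in induced cells and 6.75, 6.13 and 6.74 CPM with shXPO7_3. The values were lower in every knockdown library, with a log2 fold change of -0.28 (SE 0.09, adjusted p = 0.45). The median over the 90 was 0.01, and for 85 of them the whole 95% interval of the log2 fold change lay within 0.5 of 0, against 63.7% of all genes. The members' intervals were narrower, with a median half-width of 0.19 against 0.27 over all genes. That gap therefore does not by itself show that members were more stable than other genes.

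With shXPO7_5 again none of the 90 was called by edgeR, at a background of 0.589%. Here 17 members had an unadjusted p under 0.05, 12 of them higher, beside 21.6% of all genes, and DESeq2 called 3. Those 3 were UQCRC1, COX5B and ATP5F1D, all higher. UQCRC1 was at 203, 207 and 214 CPM in induced cells, 251, 214 and 220.1 CPM with shXPO7_3 and 263, 231 and 297 CPM with shXPO7_5. Each shXPO7_5 library was above the induced ones, and the edgeR log2 fold change was 0.34 (SE 0.10, adjusted p = 0.12), beside 0.13 for shXPO7_3. COX5B, a zinc-binding subunit of complex IV, was at 61.0, 62.8 and 63.6 CPM, 77.6, 61.2 and 65.3 CPM and 84.4, 69.3 and 84.9 CPM in these groups. Its values were 0.35 (SE 0.10, adjusted p = 0.12) for shXPO7_5 and 0.12 for shXPO7_3. ATP5F1D, the δ subunit of the catalytic head, was at 40.3, 39.9 and 41.2 CPM, 44.3, 42.0 and 40.2 CPM and 46.8, 46.8 and 64.5 CPM. Replicate B of shXPO7_5 was the highest by far, and the log2 fold change was 0.38 (SE 0.11, adjusted p = 0.14).

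NDUFAF4 went the other way in shXPO7_5, from 21.5, 24.6 and 23.1 CPM in induced cells to 17.4, 19.9 and 15.9 CPM, while shXPO7_3 gave 19.0, 24.1 and 22.6 CPM. The shXPO7_5 values lay below the induced and above the non-induced ones, and the log2 fold change against induced cells was -0.38 (SE 0.11, adjusted p = 0.12). NDUFAF6 was at 6.54, 6.04 and 6.99 CPM with shXPO7_5, a value of -0.29 (SE 0.09, adjusted p = 0.15). Both knockdowns were set against the same induced libraries, so they are not independent. These libraries also gave the OIS comparison, in which NDUFAF4 was picked for the largest rise. That choice by itself favours lower values beside them. Of the other members that rose in OIS, UQCRH, ATP5MC3 and SDHB were at -0.01, 0.07 and 0.03 on the log2 scale with shXPO7_3, and at 0.04, 0.10 and 0.03 with shXPO7_5. For UQCRH the 95% intervals were -0.18 to 0.17 and -0.13 to 0.22, so a return to the non-induced level, 0.50 lower, lay outside both.

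**Figure D3:**
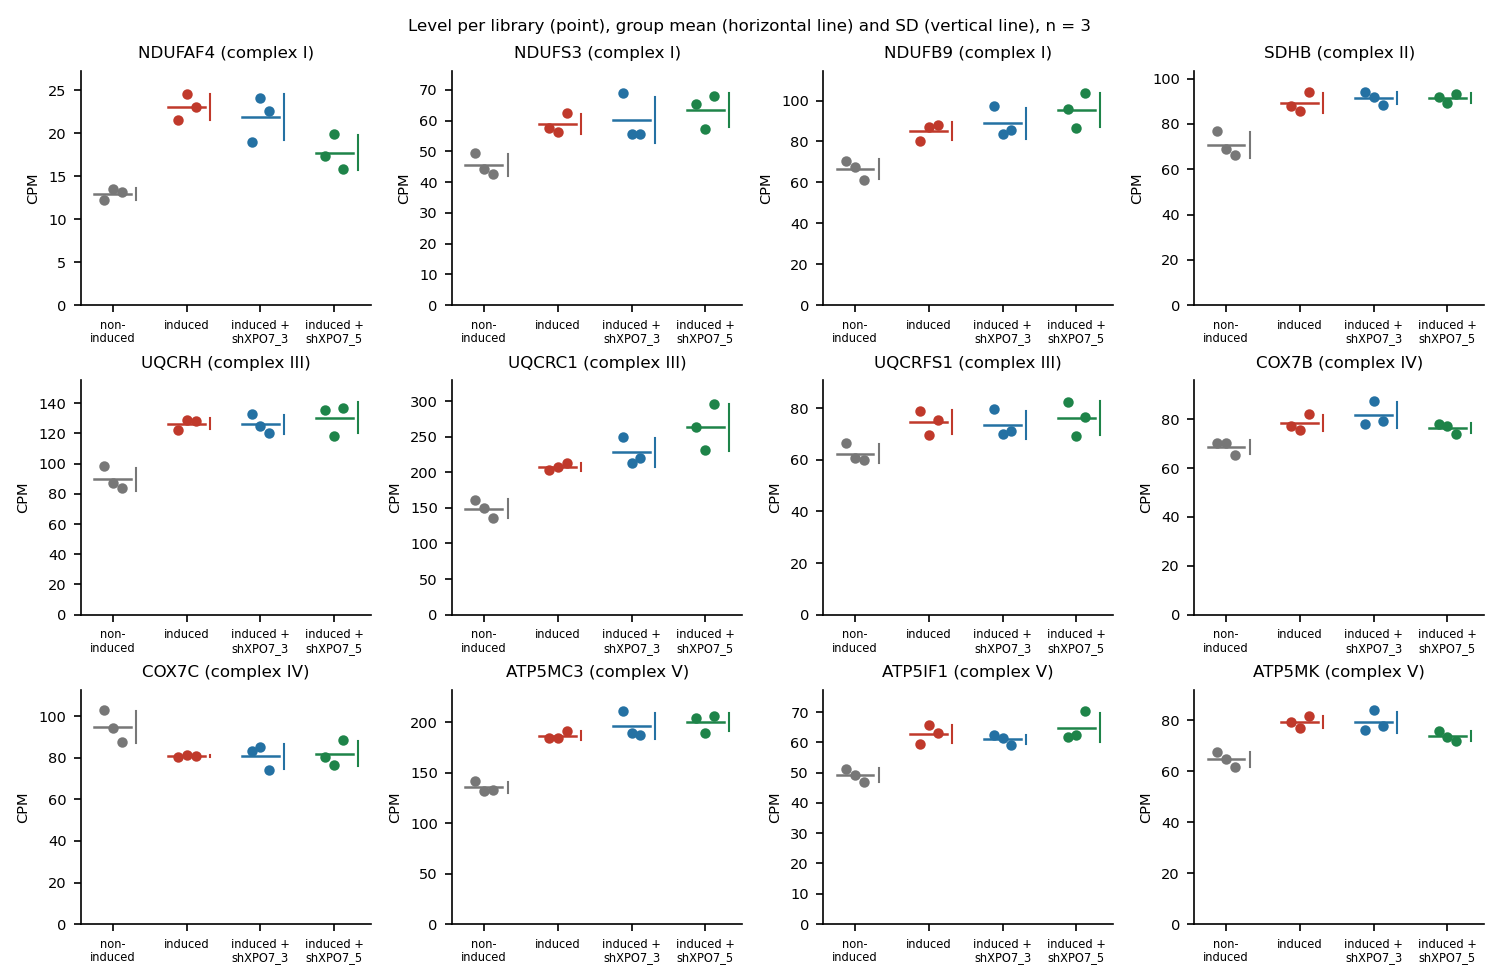
Level in CPM (vertical axes, from 0) of 12 members called in induced against non-induced cells, with 1 point per library, a horizontal line at the mean and a vertical line for the SD of each group of 3. The 12 were chosen among called members whose induced and non-induced libraries lie apart, so that gap is part of the choice. NDUFAF4 is lower with shXPO7_5 (15.9 to 19.9 CPM) than in induced cells without XPO7 shRNA (21.5 to 24.6 CPM).

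The shXPO7_5 result depended on 1 library and moved with base composition. Without replicate A of shXPO7_5, 15 members were called by edgeR, 12 higher and 3 lower, while leaving out any other library gave 0. The share of all genes called in that fit is not given here, so the 15 cannot be read as particular to the members. Over the 90 members, the log2 fold change had a Spearman correlation of 0.76 with the GC content of the transcripts, and over 14864 genes it was 0.68. For shXPO7_3 and OIS the members' correlations were 0.13 and -0.24, and for shXPO7_5 against shXPO7_3 it was 0.82. The value for shXPO7_3 came from libraries that differed, with 0.53 in replicate T, -0.39 in A and -0.0060 in B, beside 0.58, 0.44 and 0.82 in replicates T, A and B of shXPO7_5. These are descriptions across genes, which share libraries and are not independent. In replicates T, A and B of shXPO7_5, the 30 members richest in GC had median log2 ratios to the induced mean of 0.16, 0.02 and 0.34, and the 30 poorest had -0.03, -0.04 and -0.08. In replicate T of shXPO7_3 these medians were 0.13 and -0.02, close to those of replicate T of shXPO7_5. ATP5F1D transcripts are 68.7% GC and NDUFAF4 transcripts 36.3%, near the ends of the members' range of 34.4 to 68.7%.

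After correction for GC content and length, 2 members were called higher with shXPO7_5, COX5B and UQCRC1, at 0.28 and 0.15 on the log2 scale. ATP5F1D was at 0.08 after correction, and NDUFAF4 turned from -0.38 to 0.08. Neither was called. After it the members' correlation with GC was -0.57, so it did not leave them free of such a relation. Whether base composition is the source of these differences was not tested.

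**Figure D4:**
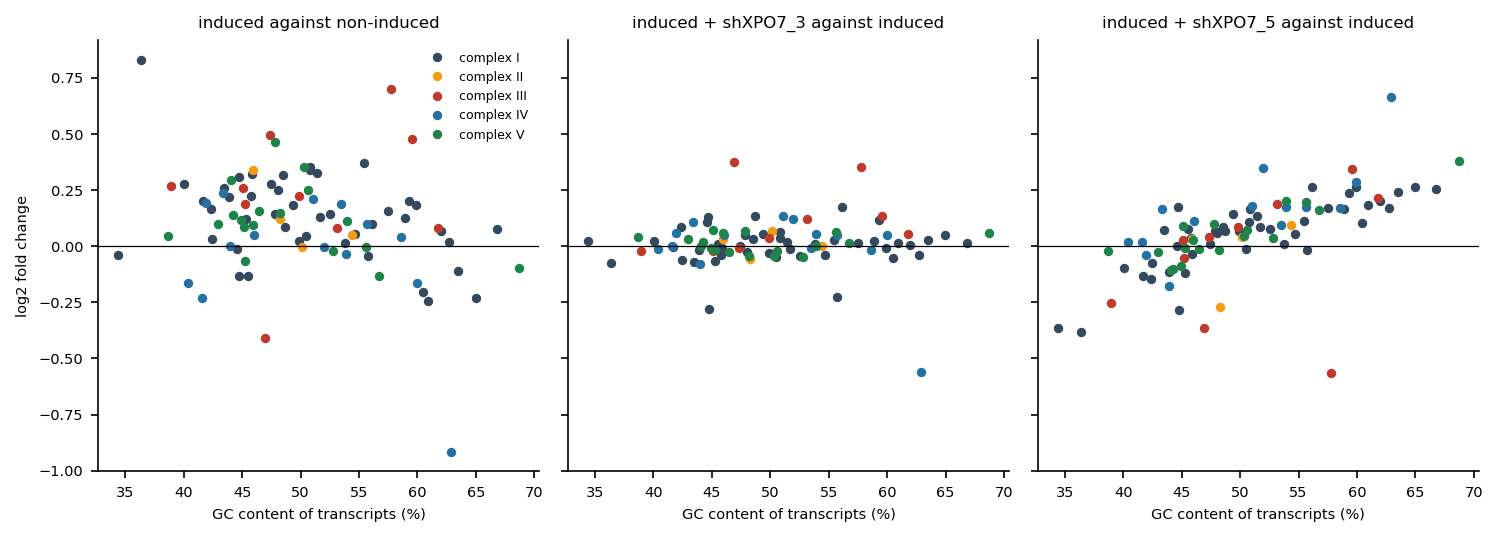
Log2 fold change (vertical axis) of the 90 members tested against the GC content of their transcripts (horizontal axis, percent) in 3 comparisons, with 1 point per member and colours for the complexes. With shXPO7_5 the points climb from left to right (Spearman 0.76), with shXPO7_3 they lie along 0 (0.13), and in OIS the slope is shallow and downward (-0.24).

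The 2 shRNAs were also compared directly. None of the 90 members was called by edgeR or DESeq2, at a background of 0.0131% of genes, and 10 had an unadjusted p under 0.05 against 11.9% of all genes. NDUFB3, an accessory subunit of complex I, was the member with the smallest p and had -0.23 (SE 0.07, adjusted p = 0.39), lower with shXPO7_5. The median over members was 0.06, and the members' log2 fold changes had a Spearman correlation of 0.82 with GC content (0.70 over all genes). XPO7 itself was higher with shXPO7_5, by 0.92 (SE 0.07, adjusted p = 0.000387), so the knockdowns also differed in extent.

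In the lists around the chain, no gene was called in either knockdown for the mitochondrially encoded subunits, the assembly factors, the regulators, the coenzyme Q genes, the tricarboxylic acid cycle, the carriers or the mitochondrial ribosome. Of the regulators that rose in OIS, PPARGC1B had 0.24 and 0.23 and ESRRA -0.03 and 0.20 with shXPO7_3 and shXPO7_5. The median log2 fold change of the 13 mitochondrially encoded subunits was -0.01 with shXPO7_3 and 0.09 with shXPO7_5. Of the fibroblast markers PDGFRB was called higher with shXPO7_5 (0.58).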

How the data were processed

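RNA of 12 libraries in 4 groups of 3 was sequenced, and the authors deposited 1 table of raw counts per gene for all libraries. As listed by the submitters' processing notes, the build was hg19 and the tools included TopHat2 2.0.11, CASAVA 1.8.4 and featureCounts 1.18.0. Which annotation and strand setting were used, and how multi-mapping reads were counted, is not given in the sources used here.

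Ensembl identifiers were matched to GENCODE release 29, which gave symbols for 50409 of 62069 genes and 99.5% of counts. The 92 spike-in entries, at 0 counts, were left out. Genes passing filterByExpr were fitted over all 4 groups with edgeR 4.0.16 in R 4.3.3 (TMM factors, quasi-likelihood F-test). P-values were Benjamini-Hochberg adjusted over 15284 genes, and a gene was called at an adjusted p under 0.05. SEs were derived from the F statistic, and CPM used TMM effective library sizes. Levels per kilobase used the median length of a gene's protein-coding transcripts. An exact permutation test of 3 against 3 libraries cannot go below 0.1, so none is quoted. Alternatives were DESeq2 1.42.0, other factors and filters, fits of only the groups compared, left-out libraries, a replicate block, and an offset for GC content and transcript length. The block left non-induced replicate C without weight, since no other group has that letter. The main edgeR fit was tested on simulated counts for the OIS comparison only, and the alternatives were not. The simulated counts held no effect of base composition or replicate letter.

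The members and gene lists were chosen with earlier results of these data known. Named with values were, per complex, up to 3 called members with the largest change each way, libraries apart and an average log2 CPM of at least 2, all isoform families, the core subunits of complexes I to III, and up to 3 called genes each way of the other lists. For the members named by largest change, groups that do not overlap were thus a condition of the choice. Other members given a value, among them those in the knockdowns, were chosen after their values were seen. The values of 1 member are not reported here, though it is in the counts. Motifs were counted in RefSeq promoters on GRCh38.p14.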

Additional observations from a re-analysis of the deposited data

How the results depend on the processing

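In OIS 27 members were called, upper-quartile factors gave 12 calls, 8 of them among the 27, and 0 had a log2 fold change of at least 1. Leaving out 1 library gave 15 to 30 calls and a median of 0.082 to 0.15, beside the median of 0.12 with all libraries. The median was 0.021 with upper-quartile factors, 0.080 with the replicate block and 0.066 with the block and the GC and length offset. All 27 kept their sign in each alternative, except COX7B with the block and offset (-0.056). With shXPO7_5, 2 members were called with the offset, 2 with block and offset, 3 by DESeq2 and 0 to 15 without 1 library. NDUFAF4 there turned to 0.076 with the offset and to 0.071 with block and offset. With shXPO7_3 and between the shRNAs no alternative called a member. For these alternatives, the DESeq2 fits among them, the share of all genes called is not given, so the counts have no background beside them.

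Of the 63 members not called in OIS, 20 changed sign with upper-quartile factors, 13 with the replicate block, 12 with the offset and 16 with both. Among those named in the text, upper-quartile factors turned COX6B1 (-0.0014), COX7A2 (-0.048), COX8A (-0.055), NDUFS7 (-0.022), SDHA (-0.051) and CYC1 (-0.019). The block turned COX8A (-0.052), NDUFS7 (-0.036), SDHA (-0.018) and CYC1 (-0.011). The offset turned COX4I1 (0.0061) and COX7A2 (-0.017), and with block and offset COX7A2 (-0.050) and COX7A2L (-0.0080). Without 1 library, values ran from -0.088 to 0.027 for COX4I1, -0.0011 to 0.12 for COX7A2, -0.019 to 0.084 for COX8A and -0.0038 to 0.12 for SDHA in OIS, and -0.15 to 0.013 for NDUFAF4 with shXPO7_3.

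The replicate letters did not mark a stated batch. Same-lettered libraries had correlations of deviations from their group means of 0.20 and 0.21 in OIS, -0.02 to 0.06 for shXPO7_3 and -0.07 to 0.19 for shXPO7_5 and -0.23 to 0.37 between the shRNAs, so they were not taken as pairs. The letter C occurs only in the non-induced group, so a replicate block also takes that library out of the OIS comparison. Changes in the block fits thus cannot be told apart from the loss of non-induced replicate C. The replicate block gave 23 calls in OIS, 19 higher and 4 lower, with 19 among the 27. Block and offset together gave 36 calls, 26 higher and 10 lower, with 18 among the 27. NDUFV1, NDUFAF3 and NDUFB7 were called lower in both fits. In the second, NDUFAF4 was at 0.49 and COX7C at -0.52, and ATP5MK, at 0.11, was not called (adjusted p = 0.18 by edgeR). With 3 libraries a group, the median half-width of a member's 95% interval was 0.19, which limits what a missing call can show.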
